A study of Sus scrofa with 4 samples.

Results

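The integrin and laminin genes encode the receptors with which cells hold on to their surroundings and a main class of matrix proteins that those receptors bind. Members were the RefSeq (Sscrofa11.1) protein-coding genes whose symbol is ITGA or ITGB followed by a number or a letter, with at most 1 further letter, or LAMA, LAMB or LAMC followed by 1 digit. The rule found 37 of 19550 protein-coding genes on the placed chromosomes, of which 25 encode integrin subunits and 12 encode laminin chains. For each gene, the peaks that overlapped the gene model or the 10 kb on either side of it were taken.

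Open chromatin had been mapped by ATAC-seq, a method that inserts sequencing adapters into accessible DNA with a transposase, in porcine fetal fibroblasts (PFFs) from skin. Cells of 2 libraries had the genotype WT and carried pTK-642 (control 1 and control 4), and those of 2 libraries were BRG1-overexpressed from pTK-642-BRG1 (BRG1 1 and BRG1 4). Cells of all 4 libraries were serum-starved. BRG1, the product of SMARCA4, is a motor subunit of complexes that move nucleosomes, and the series sets out from its effect on cloned porcine embryos. The labels name neither a promoter for the construct, nor clones, pools or separate cultures, so the spread between libraries of a group may be technical.

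Each library came as its own peak list, with 107475 and 105954 peaks in the controls and 96367 and 90851 in the BRG1 libraries. Relative depth, read from the lowest background in each list, ran from 81.2% of control 1 in BRG1 1 to 93.5% in control 4, while absolute depth is unknown. That reading assumes the same caller settings for every library, and the settings are not given. BRG1 4 had a median peak width of 541 bp against 396 to 404 bp in the other libraries. Among fibroblast markers, 10 of 12 genes had a peak within 1 kb of a gene end in all 4 libraries. The exceptions were DCN, with none in any library, and POSTN, with one in BRG1 4. Of all protein-coding genes, 68.2% had such a peak in all 4 libraries. Such a peak was also found in all 4 libraries at 5 of 8 leukocyte genes (SPI1, LCP1, CORO1A, CD14 and CD3E, but not PTPRC or CD79A) and at 2 of 7 keratinocyte genes (EPCAM and DSP). Of the other keratinocyte genes, KRT5 and DSG3 had no peak in their windows, while KRT15 held 1 in each library. TP63 held 2, 3, 4 and 3 peaks and CDH1 4, 4, 5 and 4 in control 1, control 4, BRG1 1 and BRG1 4. The part of other cell types in the results was not tested.

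Integrins are heterodimers of an alpha and a beta chain that span the membrane and link the matrix to actin. The alpha chain sets much of the ligand choice: some bind collagen, some laminin, and some the arginine-glycine-aspartate motif of fibronectin and vitronectin, while a further set works in leukocytes. Laminins are cross-shaped trimers of an alpha, a beta and a gamma chain and form a sheet in basement membranes. Fibroblasts attach mainly through beta-1 and alpha-V integrins, whereas the laminin chains LAMA3 and LAMB3 and the integrin pair ITGA6 and ITGB4 are known from epithelial basement membranes.

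Overlapping peaks from any of the libraries (1 bp or more in common) were joined into union regions, and the 37 windows held 368 of these regions. Values per library are given in the order control 1, control 4, BRG1 1, BRG1 4 unless libraries are named. The windows did not overlap each other, so no region was counted for more than 1 member. Of the 368 regions, 230 (62.5%) were called in all 4 libraries, close to the 61.8% of all 121788 union regions. Most lay inside gene models: 275 were in a gene body over 1 kb from its ends, 34 were within 1 kb of an end of the member itself, 19 of them at a lower-coordinate and 15 at a higher-coordinate end, and 59 were in a flank. Of the 59 flank regions, 15 lay within 1 kb of an end of another protein-coding gene. The table of genes gives no strand or exons, so starts could not be told from ends, nor exons from introns.

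The number of regions per member ran from 2 at ITGAD to 25 at LAMA4, with a median of 9, against 4 over all protein-coding genes. Members were long, with a median gene model of 72.1 kb against 20.7 kb, and per 100 kb of window their median was 9.02 regions against 7.82. Longer members held more regions (Spearman's rho 0.72, Pearson's r 0.60 across the 37 genes, a description of genes that share the same 4 libraries). LAMA2, which encodes the alpha chain of muscle and nerve basement membranes, spans 594 kb (chromosome 1, 33765412 to 34359741). It held 17 regions, or 2.77 per 100 kb, the lowest value among the members. ITGA5, the alpha chain of the classical fibronectin receptor, held 9 regions in a model of 23.2 kb, or 20.8 per 100 kb, the highest value among the members. ITGA3, an alpha chain of laminin receptors, followed with 20.2 per 100 kb.

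**Figure D1:**
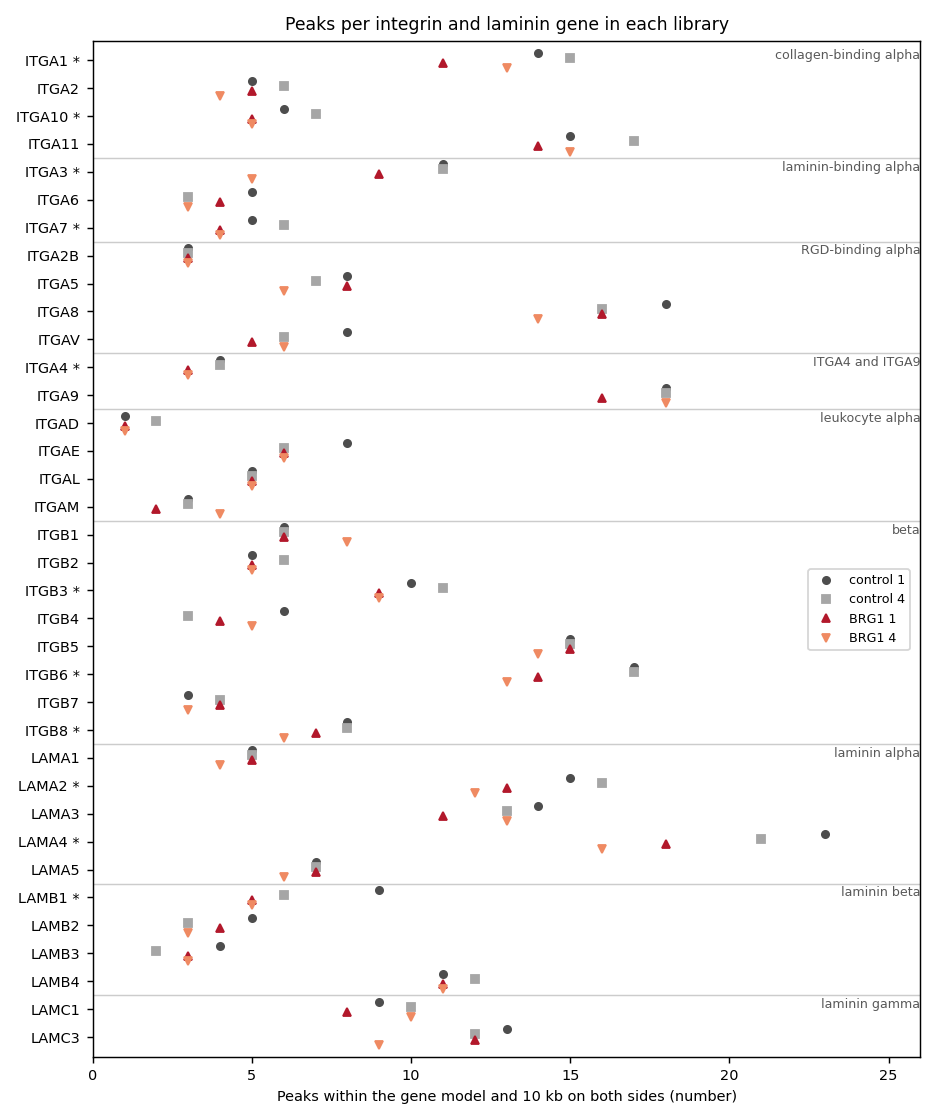
Number of peaks (x axis) within each gene model and 10 kb on both sides, for the members by role (y axis; 1 laminin gene is not shown), with a symbol for each library, offset vertically to keep equal values visible. An asterisk marks the 11 genes in which both BRG1 libraries had fewer peaks than either control, such as LAMA4 with 23 and 21 in control and 18 and 16 in BRG1 libraries.

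Gene ends were read next, since promoters lie at one of them. A peak within 1 kb of an end was called in all 4 libraries at 24 of 37 members, a share of 64.9% against 68.2% of all protein-coding genes. At 9 members (24.3%) no library had one, against 25.8% of all genes. Both shares lay near those of all genes. The calls at the remaining 4 members differed between libraries.

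Among the alpha chains, all 4 collagen receptors (ITGA1, ITGA2, ITGA10 and ITGA11) had an end peak in every library. So did 3 of the 4 alpha chains that bind the arginine-glycine-aspartate motif, ITGA5, ITGA8 and ITGAV. The exception was ITGA2B, the platelet fibrinogen receptor, which had none in any library, like the platelet markers GP1BA and GP9. ITGA3 and ITGA6 of the laminin receptors had an end peak in all 4 libraries and ITGA7, known from muscle, in none. ITGA9 had one in every library and ITGA4, a receptor for VCAM1 and fibronectin, in none. Of the alpha chains of leukocyte integrins, ITGAL had an end peak in all 4 libraries and ITGAD in none.

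ITGAV (chromosome 15, 91604666 to 91711843) had the end peak of highest rank. Its peak at the lower-coordinate end stood at percentiles of −log10 p of 98.5, 97.9, 98.5 and 92.6, each within its own list. The authors' fold, the pileup at the summit over the background of the same library, was 20.8, 20.2, 20.6 and 13.3 in that order. BRG1 4 had the lowest value and the other 3 libraries lay close together.

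ITGB1 (chromosome 10, 56078393 to 56130608), the beta chain shared by most matrix-binding integrins, showed the same order more strongly. The deposited fold of its higher-end peak was 17.3, 15.7, 17.1 and 7.67. Its percentile was 90.3, 88.5, 90.7 and 66.1. BRG1 4 was therefore the low library, and BRG1 1 lay between the controls in fold.

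A lowest fold in BRG1 4 was common among the members. Of 26 gene ends with a peak in all 4 libraries, the authors' fold was lowest in BRG1 4 at 19, in control 4 at 4, in BRG1 1 at 2 and in control 1 at 1. The same count was not made over the ends of all genes. Over all peaks in the windows the median fold was 7.60, 7.60, 9.01 and 7.01. By percentile BRG1 4 was not always lowest: it stood highest at ITGB6 and ITGB8 and lowest at ITGAV and ITGB1. The median fold over these ends was 10.1, 9.64, 9.69 and 7.63, and the median width was 1014.5, 903, 889.5 and 1112 bp. The larger width and lower fold of BRG1 4 moved together, and their part in the calls of that library was not tested. Folds come from separate lists and describe each list, so no test was made between them.

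Of the beta chains, ITGB1, ITGB3, ITGB5, ITGB6 and ITGB8 had an end peak in all 4 libraries. ITGB8 (chromosome 9, 89342245 to 89450701), the partner of ITGAV in activating latent TGF-beta, ranked second among integrin ends, at percentiles of 96.4, 95.4, 96.2 and 96.7. Its groups overlapped. That region also touched the end of MACC1, so its signal cannot be given to ITGB8 alone. The lower end of ITGA1 was shared in the same way with PELO, and that of LAMB2 with USP19. ITGB6, known from epithelia, had the lowest-ranking end peak of those present in all libraries, at percentiles of 27.0, 23.5, 21.7 and 34.8.

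ITGB2, the beta chain of leukocyte integrins, and ITGB7, another leukocyte beta chain, had no end peak in any library. Both windows still held strong regions. That of ITGB7 held the region of highest rank among the 368, at a mean percentile of 98.7, and it lay at ends of CSAD and ZNF740. The strongest region in the ITGB2 window lay at an end of PTTG1IP, at 95.6. Likewise the strongest region near ITGAL, at 98.5, lay at an end of ZNF768. Which gene these flank regions serve was not tested, so they cannot be given to the integrins alone.

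Among laminins, LAMB1 (chromosome 9, 107670120 to 107747242), LAMB2 and LAMC1, chains of the common laminin trimers, had the highest-ranking end peaks by the mean over libraries. The higher-end peak of LAMB1 stood at percentiles of 96.1, 95.0, 95.7 and 95.6, so the groups overlapped. LAMB2 (chromosome 13, 31738282 to 31750623) had peaks at both ends in all libraries, at mean percentiles of 91.1 and 88.0. LAMC1 (chromosome 9, 124283668 to 124405967) stood at 87.2, 82.5, 84.0 and 81.5, so the groups overlapped. The lower end of LAMC3 stood higher in every library except BRG1 4, at 88.1, 88.9, 87.6 and 66.4.

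LAMC3, a gamma chain outside the common trimers, was, with LAMB2, 1 of the 2 members whose ends both carried a peak in every library (1738 of 19550 genes did, or 8.89%). Of the alpha chains, LAMA1, LAMA2, LAMA3 and LAMA4 had an end peak in all libraries, at mean percentiles between 50.3 and 67.0. LAMB3, the beta chain that pairs with LAMA3 in epithelia, had an end peak in no library, and LAMB4 had none either. The nearest region called in all 4 libraries lay 9696 bp from an end of LAMB3 and 3058 bp from one of LAMB4.

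LAMB1 and LAMB4 are neighbours, 30.6 kb apart, and differed at their ends. LAMB1 had an end peak in all libraries at a mean percentile of 95.6, and LAMB4 had none. ITGA1 and ITGA2, 26.3 kb apart, both had one, at mean percentiles of 72.1 and 37.1.

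**Figure D2:**
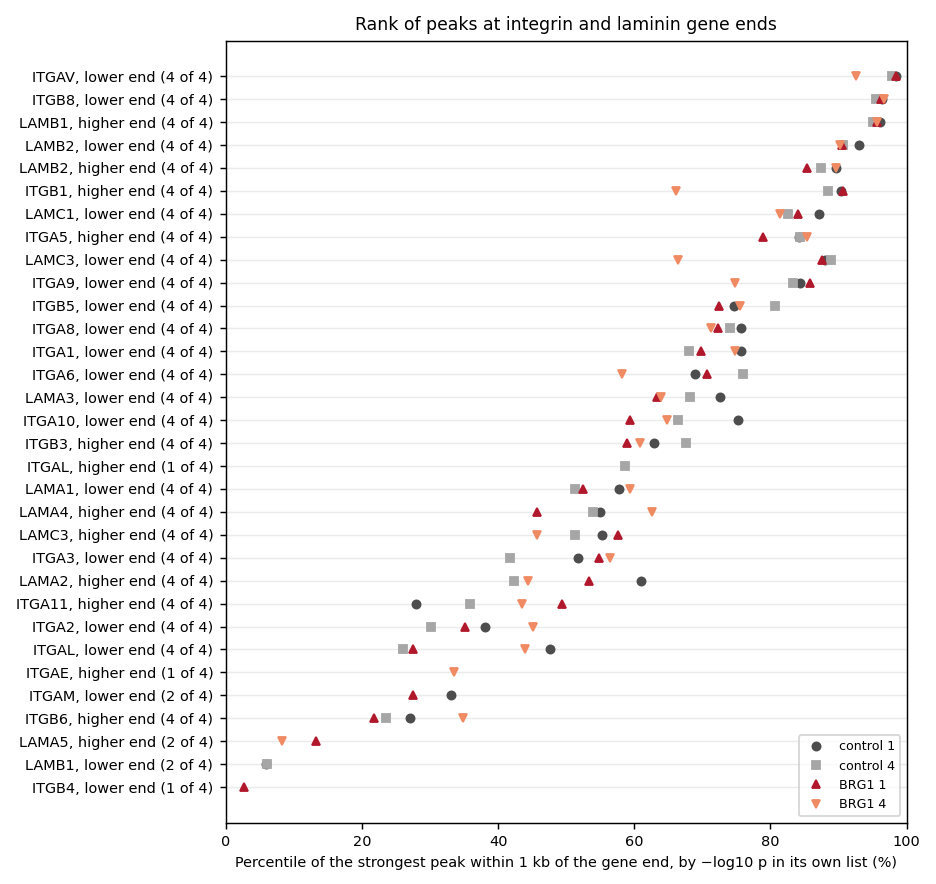
Percentile of the strongest peak within 1 kb of a gene end by −log10 p within its own list (x axis, 0 to 100%), for each member end with a peak in at least 1 library (y axis, with the number of libraries in brackets). ITGAV, ITGB8 and LAMB1 stand at the top, BRG1 4 lies apart at ITGB1 (66.1) and at the lower end of LAMC3 (66.4), and a missing symbol means that no peak was called.

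Some of the members' strongest regions lay inside the gene and away from any gene end. ITGB3, the beta chain of the vitronectin receptor, had a gene-body region at a mean percentile of 97.2 (chromosome 12, 16738113 to 16739300), above its end peak at 62.6. LAMB1 had one at 97.1 (chromosome 9, 107735209 to 107735916). ITGA11, a collagen receptor of fibroblasts, had one at 95.8 (chromosome 1, 166266150 to 166267249), while its end peak stood at 39.2. ITGB6 had one at 95.7, ITGA5 at 95.5 and ITGA9 at 95.0. These regions were called in all 4 libraries.

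Calls were then compared between the groups. Summed over the 37 windows, 329 and 320 peaks were called in the controls and 285 and 277 in the BRG1 libraries, with means of 324.5 ± 6.36 and 281 ± 5.66 (SD, n = 2 each). The ratio of the means was 0.866, and over all peaks it was 0.877. The members' ratio was near that of the whole lists. With the same number of top-ranking peaks in each list, 90851, the members' ratio was 0.950, where that of the whole lists is 1 by construction. Counted as regions with a peak, the ratio in equal lists was 0.955 for the members and 1.01 over all union regions. Integrins and laminins gave 0.871 and 0.857 with all peaks. Values over chosen members carry no p.

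Every member with a difference free of overlap went the same way. In 11 of 37 genes (29.7%) both BRG1 libraries had fewer peaks than either control, and in 0 genes did both have more. Over all protein-coding genes these shares were 15.0% and 1.24%. Long genes with many regions showed such a difference more often: among genes with 10 or more regions the share was 40.0%, and 5 of 15 such members (33.3%) had it. Among genes with fewer regions the share was 11.6%, and 6 of 22 members (27.3%) had it. By a two-sided exact permutation test of peaks per gene, the smallest p that 2 against 2 libraries can give is 0.33, and 11 members reached it. After Benjamini-Hochberg adjustment over all genes the lowest p was 1, and 0 genes had an unadjusted p under 0.05.

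Several peaks of a library can fall into 1 region. Counting instead the regions with at least 1 peak of a library gave 319 and 306 in the controls and 272 and 272 in the BRG1 libraries. By this count 12 of 37 members (32.4%) had fewer in both BRG1 libraries, against 13.2% of all genes, and 0 had more, against 1.28%. Among genes with 10 or more regions 37.0% had fewer, and 8 of 15 such members did. The 11 and the 12 members had 9 genes in common. ITGA8, ITGA11 and LAMC3 were among the 12 but not among the 11. ITGB3 was not among the 12, since its 10 and 11 control peaks and 9 and 9 BRG1 peaks fell into 9 regions.

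With lists of equal length the directions were nearly even over all genes, at 5.53% with fewer and 4.84% with more peaks in both BRG1 libraries. Among the members 8 of 37 (21.6%) had fewer and 0 had more. Counted as regions, 4.33% of all genes had fewer and 4.92% had more, while 7 of 37 members (18.9%) had fewer and 0 had more. Among genes with 10 or more regions these lists gave fewer peaks at 10.4% and fewer regions at 8.50%, and the members with that many regions gave 6 of 15 and 5 of 15. With equal lists the members that differed thus all had fewer, while over all genes both directions were about as common. No test of the list was made, because the members were chosen with results of these data in view.

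**Figure D3:**
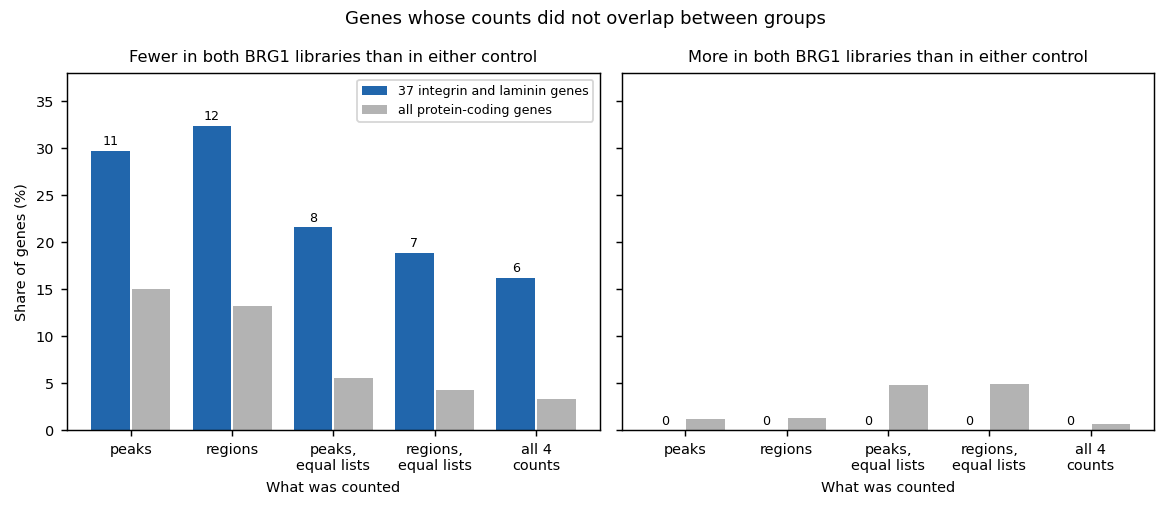
Share of genes (y axis, %) whose counts did not overlap between groups, with fewer (left) or more (right) in both BRG1 libraries, for the 37 members and for all protein-coding genes. Each position on the x axis is a way to count, and numbers above the bars are members: 11, 12, 8, 7 and 6 with fewer, and 0 with more throughout.

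By all 4 ways of counting, 6 members had fewer in both BRG1 libraries: LAMA2, LAMA4, ITGA3, ITGA4, ITGA10 and ITGB6. Over all genes 3.32% did so, and 0.696% had more by all 4. Leaving out a library lowers the number that must differ. Without control 1, 17 members (45.9%) had fewer peaks in the BRG1 libraries, against 25.4% of all genes, and 2 had more, against 4.15%. Without control 4 these were 20 members (54.1%), against 26.6%, and 0, against 3.63%. Without BRG1 1 they were 18 (48.6%), against 31.1%, and 2, against 5.58%, and without BRG1 4 they were 17 (45.9%), against 21.6%, and 0, against 6.01%. The share of members with fewer lay above that of all genes with any of the libraries left out. Members held more regions than all genes, with medians of 9 and 4, and genes with 10 or more regions had fewer peaks more often. The shares by all 4 counts and without a library were not split by region number. The part of region number in them was therefore not tested.

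LAMA4 (chromosome 1, 78071990 to 78224564), the alpha chain of laminins of mesenchymal and vascular tissue, had the most regions of any member. It held 23 and 21 peaks in the controls and 18 and 16 in the BRG1 libraries, so every BRG1 value lay below every control value. Of its 25 regions, 14 were called in all libraries and 3 in both controls and no BRG1 library. Its end peak was present throughout, at percentiles of 55.0, 53.9, 45.7 and 62.6.

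LAMA2 held 15 and 16 peaks in the controls and 13 and 12 in the BRG1 libraries. Of its 17 regions, 11 were called throughout and 2 in both controls alone. LAMA3, an alpha chain of epithelial basement membranes, with 14, 13, 11 and 13 peaks, overlapped between the groups, and so did LAMA1, known from embryonic basement membranes, with 5, 5, 5 and 4. The alpha chains of laminin did not all follow LAMA4.

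ITGA3 (chromosome 12, 26234769 to 26269327) showed the largest gap between the BRG1 libraries. It held 11 and 11 peaks in the controls, 9 in BRG1 1 and 5 in BRG1 4. Of its 11 regions, 5 were called in all libraries, among them the end peak, and 3 in every library except BRG1 4. The end region held 2 separate peaks in each library except BRG1 4, where it held 1. BRG1 4 accounted for most of the difference, and BRG1 1 still lay below both controls.

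ITGB6 (chromosome 15, 67041516 to 67175409) held 17, 17, 14 and 13 peaks. ITGA10, a collagen receptor of cartilage, held 6, 7, 5 and 5. ITGA4 held 4, 4, 3 and 3, yet its BRG1 libraries lacked different regions: BRG1 1 lacked one in the higher flank and BRG1 4 lacked one in the gene body. A lower number of peaks in both BRG1 libraries thus did not always mean that the same region was missing.

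The other members with fewer peaks in both BRG1 libraries were ITGA1 (14, 15, 11 and 13 peaks), ITGA7 (5, 6, 4 and 4), ITGB3, ITGB8 (8, 8, 7 and 6) and LAMB1 (9, 6, 5 and 5). Several members with central roles in fibroblasts overlapped between the groups in their number of peaks. ITGB1 held 6, 6, 6 and 8 peaks, ITGA5 8, 7, 8 and 6, ITGAV 8, 6, 5 and 6, and ITGA11 15, 17, 14 and 15. Counted as regions, ITGA11 did not overlap, with 15, 15, 13 and 14, and was among the 12 members with fewer. LAMC1 held 9, 10, 8 and 10.

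Regions called in both controls and neither BRG1 library are called control-only here, and the reverse BRG1-only. The windows held 18 control-only regions (4.89% of 368), against 4.41% of all union regions, and 1 BRG1-only region (0.272%), against 0.741%. With lists of equal length they held 12 control-only (3.57% of 336) and 2 BRG1-only regions (0.595%), while over all regions both shares were 2.04%. With all peaks the control-only share was near that of all regions. Without control 1, control 4, BRG1 1 or BRG1 4, where 1 library stands for its group, the control-only count was 37, 42, 41 and 27, and the members' share was 1.07, 1.14, 1.02 and 1.02 times that of all regions under the same setting. The BRG1-only count was then 6, 1, 17 and 7, and the members' share 0.830, 0.153, 1.06 and 0.579 times that of all regions.

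The 18 control-only regions belonged to 13 members, 10 regions to integrins and 8 to laminins. Of them 16 lay in gene bodies, 1 at a gene end and 1 in a flank. They ranked below regions called throughout: their median percentile was 26.5 and the highest 42.1, against a median of 61.0. Their median width was 278.5 bp against 704.5 bp. Regions of the other patterns, with the BRG1-only region set aside, ranked lower still. Their median percentile was 15.6 and their median width 269 bp. The authors' fold of the control-only regions ran from 2.68 to 8.24 and their −log10 q from 2.81 to 15.7. Of the 18, 11 kept their call with lists of equal length.

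The highest-ranking control-only region lay in ITGA1, the alpha chain of a collagen IV receptor, on chromosome 16 from 32286397 to 32286701. Its deposited fold was 8.24 in control 1 and 7.88 in control 4. A second region in ITGA1, from 32154903 to 32155229, had folds of 5.83 and 6.09. The 3 control-only regions of LAMA4 lay 40.5, 88.9 and 127 kb from its lower end, with folds of 7.55 and 6.33, 5.46 and 4.90, and 3.29 and 4.19 in control 1 and control 4. All 5 of these regions kept their call with lists of equal length.

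The 2 control-only regions of LAMA2 lay 187 and 317 kb from its lower end, deep inside the gene, with folds of 5.49 and 6.81 and of 5.49 and 7.52 in control 1 and control 4. ITGA11 also held 2, neither of which kept its call with equal lists. The others lay 1 each in ITGA3, ITGA6, ITGA8, ITGA10, ITGAV, ITGB6, LAMA3, LAMB1 and LAMC1. That at LAMB1 was at a gene end, on chromosome 9 from 107670235 to 107670521, 115 bp inside the lower end. It ranked at a mean percentile of 6.01 and was lost with equal lists. The strong peak at the other end of LAMB1 was called in all 4 libraries.

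**Figure D4:**
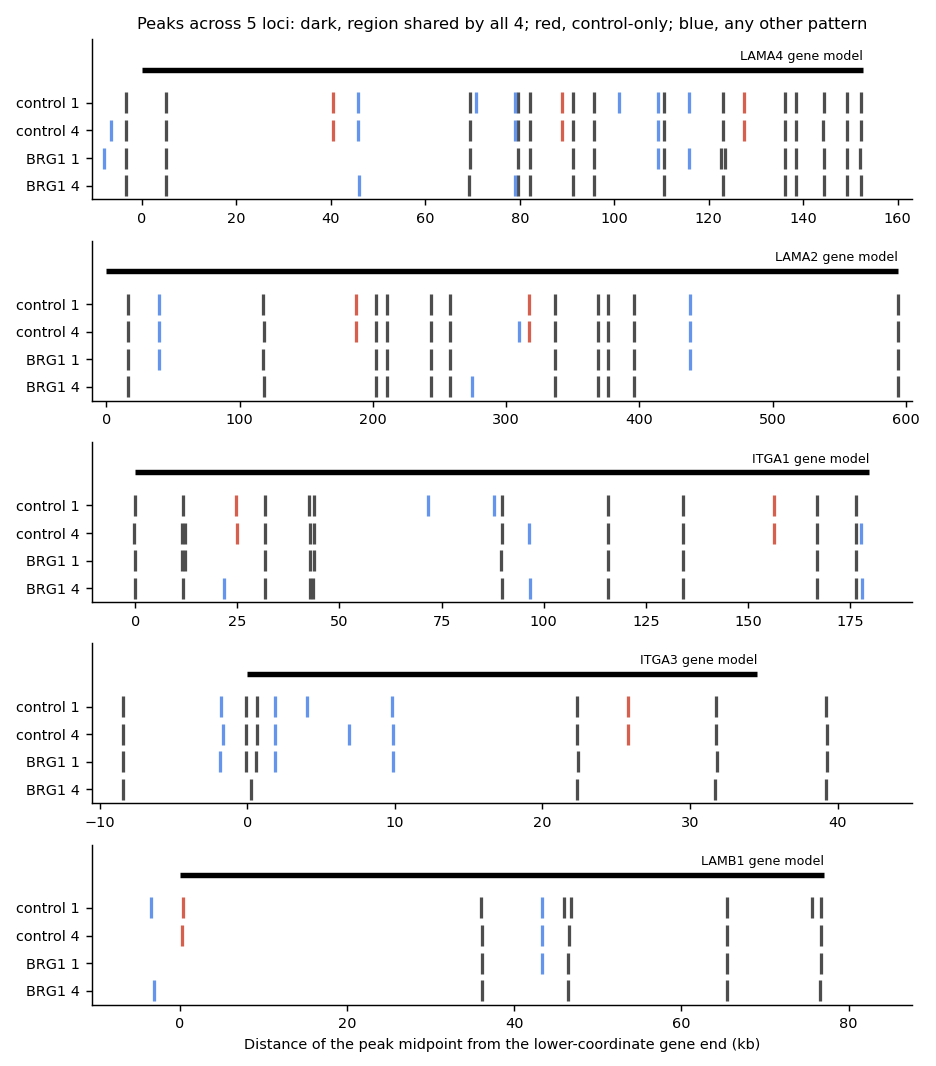
Peak calls in each library (rows) across LAMA4, LAMA2, ITGA1, ITGA3 and LAMB1, as ticks at the peak midpoint against the distance from the lower-coordinate gene end in kb (x axis); tick width is not peak width. Control-only regions (red) number 3 in LAMA4, 2 in LAMA2, 2 in ITGA1, 1 in ITGA3 and 1 in LAMB1, set among regions called throughout (dark) and other patterns (blue).

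The BRG1-only region lay in the lower flank of LAMA3, 9095 bp from the gene (chromosome 6, 108539479 to 108539723). Its deposited fold was 4.19 in BRG1 1 and 3.48 in BRG1 4, at percentiles of 4.84 and 3.20, and it was lost with lists of equal length. The 2 BRG1-only regions of the equal lists lay in ITGA11 and ITGA9. Neither was BRG1-only in the full lists. There the ITGA9 region was called in all 4 libraries, and the ITGA11 region in control 1 and both BRG1 libraries.

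LAMA5, the widespread alpha chain of epithelial and vascular basement membranes, carried a peak within 1 kb of its higher end in both BRG1 libraries and in neither control. The peaks did not coincide. That of BRG1 1 lay on chromosome 17 from 61747710 to 61748124, across the end of the model, and that of BRG1 4 from 61746515 to 61747129, inside it. Their folds were 3.68 and 3.20, at percentiles of 13.2 and 8.26. No region near LAMA5 was BRG1-only, and in total it held 7, 7, 7 and 6 peaks.

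The other 3 members whose end calls differed had no group pattern. ITGB4, the beta chain of hemidesmosomes, had a weak end peak in BRG1 1, at percentile 2.59. At ITGAM, an alpha chain of myeloid integrins, a peak reached within 1 kb in control 1 and BRG1 1. The region that held it was called in all 4 libraries and began 971 bp from the gene. At ITGAE one reached within 1 kb in BRG1 4, in a region called throughout that began 991 bp from the gene. For ITGAM and ITGAE the difference thus lay in how far a shared peak extended.

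All call patterns were then set beside those of all regions. After the 230 shared by all, the commonest patterns among the members were control 1 alone with 24 regions (6.52%, against 5.58% of all regions) and all but BRG1 4 with 23 (6.25%, against 6.39%). Next came the control pair with 18 and control 4 alone with 18. BRG1 4 alone had 16 (4.35%, against 3.49%) and BRG1 1 alone 6 (1.63%, against 2.41%). No region was missing from control 1 alone, against 1.03% of all regions.

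**Figure D5:**
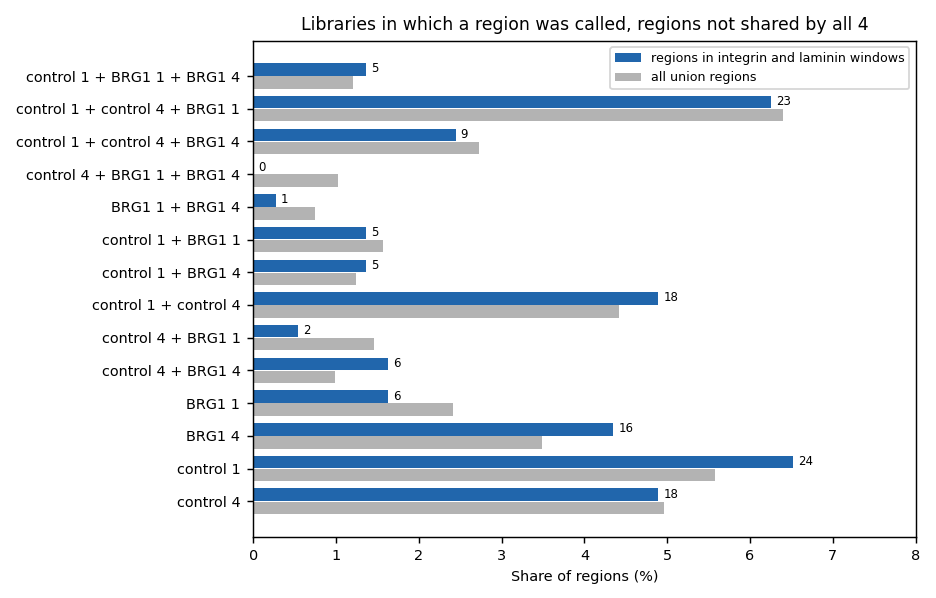
Share of regions (x axis, %) by the libraries in which they were called (y axis), for the 368 regions of the members and all union regions, leaving out regions shared by all 4 libraries. Numbers beside the bars count member regions, and the members follow the pattern of all regions, with 23 missing from BRG1 4 alone and 18 from both BRG1 libraries.

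Genes that work with integrins inside the cell were taken from a list of 27 adhesion genes. Of these 24 had an end peak in all 4 libraries, against 68.2% of all genes. TNS1, PARVG and FLNA had none in any library, against 25.8% of all genes. In 8 of the 27 both BRG1 libraries had fewer peaks than either control, against 15.0% of all genes, and in 1 both had more, against 1.24%. The share with fewer was 40.0% among all genes with 10 or more regions and 11.6% among the rest. Of the 8, TLN2, VCL, TNS1, PARVA, PARVB and TNS2 had 10 or more regions, while ZYX and CD151 had under 10. Others of the list with 10 or more, such as PTK2 with 29, overlapped between the groups. The part of region number in the count of 8 was not tested. VCL, which encodes vinculin, a link from talin to actin, held 18, 20, 15 and 14 peaks. PARVA, which encodes a parvin that binds integrin-linked kinase, held 24, 25, 22 and 22. The gene with more was SRC, a kinase of adhesion sites, with 5, 5, 7 and 7.

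Genes that accompany laminins were taken from a list of 18 basement membrane partners. It holds matrix genes such as NID1 and COL4A1, and also cell-surface and intracellular ones such as BCAM, RPSA and PLEC. All 18 had an end peak in every library, against 68.2% of all genes. Fewer peaks in both BRG1 libraries were found at 2 of the 18, NID1 and NTN4, against 15.0% of all genes, and more at 0, against 1.24%, so these counts were no larger than those shares give. NID1 encodes nidogen, which joins laminin to collagen IV, and held 17, 18, 12 and 15 peaks. NTN4, a netrin that binds laminin, held 11, 9, 8 and 8. The sums over the lists gave BRG1 to control ratios of 0.903 for the adhesion genes and 0.930 for the basement membrane partners, against 0.866 for the integrins and laminins.

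Marker lists of other cell types are given for comparison. End peaks in all 4 libraries were found at 2 of 7 keratinocyte genes (EPCAM and DSP), 5 of 8 leukocyte genes, 2 of 7 endothelial genes, 3 of 5 skeletal muscle genes and 0 of 3 platelet genes, of which ITGA2B is also a member. Over all protein-coding genes the share was 68.2%. Mean peak sums in control and BRG1 libraries were 15.5 and 17 for keratinocyte, 30.5 and 27.5 for leukocyte, 32 and 29.5 for endothelial, 14 and 14 for skeletal muscle and 8 and 8 for platelet genes.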

How the data were processed

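Each of the 4 ATAC-seq libraries had 1 deposited peak list in narrowPeak layout, called per library. FastQC, BWA, Bowtie, SAMtools, MACS2 and the build Sscrofa11.1 are named without versions or roles, per the submitters' processing notes. How duplicates and the Tn5 shift were treated, and the caller settings, is not given in the sources used here. These steps can change peak number and width. The deposited fold (a ratio) and the −log10 p and −log10 q were computed by the authors within each library. The deposited score repeats the −log10 q and was not used. They describe and rank peaks within their own list.

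Peaks were merged into union regions and counted in gene windows with Python 3.11.15, numpy 2.4.6 and pandas 2.3.3, and checked on simulated lists. Genes came from a RefSeq table of the same build without strand, so a peak within 1 kb of either gene end replaced the planned gene start. Promoter sequences and motifs were not analysed here. Each gene was tested by a two-sided exact permutation test over the 4 libraries, with Benjamini-Hochberg adjustment over all genes. Relative depth came from the whole-number pileup and background that fold and p-value fix together, found to within 0.001 of −log10 p for 99.9% of peaks with a −log10 p under 12. Members, lists and the rule for named genes were chosen with earlier results of these data known. Values per library are given for members with group-specific regions, without overlap between groups, with the most regions or highest end peaks, or discordant at an end. Others, such as ITGB1, were chosen after their values were seen. Counting regions in place of peaks was added after seeing the data. Values of 1 laminin gene are not reported here by name, though it is included in the counts.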

Additional observations from a re-analysis of the deposited data

How the results depend on the processing

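Equal-length lists gave a ratio of peaks in the windows of 0.950 (0.955 counted as regions), 2 BRG1-only regions and 7 members with fewer regions in both BRG1 libraries; these lists held fewer peaks by construction. BRG1-only regions came to 0 in gene models alone and 4 where 50% of a region had to be covered, and members without an end peak to 5 with 3 kb around gene ends. Leaving out each library, where fewer libraries had to agree, gave 17 to 20 members with fewer and 0 to 2 with more peaks, 1 to 17 BRG1-only and 27 to 42 control-only regions. In all, 53 of 72 values were within 1.5 times the main count or 1 SD of the ratio, and 19 moved. Similar counts did not always mean the same genes or regions. With a −log10 q of at least 5, 12 members had fewer peaks, among them 7 of the main 11. The 1 BRG1-only region of that setting was not the main one. With equal lists 8 members had fewer peaks, among them 6 of the main 11. Replicate number as a block gave a ratio of 0.866, 14 members with fewer and 0 with more peaks. Deviations of same-numbered libraries correlated at 0.0041 over genes, and the numbers were not taken as pairs. Peak counts per gene cannot show whether same-numbered libraries share a culture or batch. Absolute depth is unknown, and a missing peak means that none was called. The motif comparison was not run.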

Other observations

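A wider reading of the symbol rule adds 3 genes that encode no integrin chain. ITGB1BP1, which encodes an adaptor of the ITGB1 tail, had 2 regions, both called in all 4 libraries, with a peak at a gene end in each. ITGBL1, a secreted protein with integrin-like repeats, had no end peak in any library and 6, 8, 7 and 5 peaks in control 1, control 4, BRG1 1 and BRG1 4, so the groups overlapped. ITGB1BP2, known from muscle, had no peak in any library.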
